A study of Mus musculus with 16 samples.

Results

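Retinoic acid is made inside cells from vitamin A (retinol), which is oxidised first to retinaldehyde and then, by enzymes of the Aldh1a family, to retinoic acid. The acid is carried by small binding proteins, binds nuclear receptors of the RAR family that act on DNA as partners of RXR receptors, and is broken down by enzymes of the Cyp26 family. In the embryo the pathway is known for its part in patterning the body axis and the limbs, and mesenchymal cells such as fibroblasts both make the acid and respond to it. The 9 genes described here were chosen by name as components of this pathway, with earlier results of these data known. They are called its members. They comprise the synthesis enzymes Aldh1a1, Aldh1a2 and Aldh1a3, the retinaldehyde reductase Dhrs3, the degrading enzyme Cyp26b1, the binding proteins Crabp1 and Crabp2, and the receptors Rarb and Rarg. All 9 were matched by symbol to 1 row each of an expression table of 54453 genes.

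The values come from total RNA sequencing of 16 immortalised mouse embryonic fibroblast (MEF) lines, with 1 library for each line. MEF-1 and MEF-2 are parental populations grown from sibling E13.5 C57BL/6J embryos and immortalised by serial passaging through crisis, and 7 clonal lines of each were grown out from single sorted cells. No transgene, engineered allele or drug treatment is named for any line, and all were kept in the same serum-containing medium. MEF-1 came from a male and MEF-2 from a female embryo, and sequencing coverage pointed to altered copy numbers of chromosomes 12, 18 and 19 in at least some of the lines, of which chromosome 19 carries Aldh1a1. The study set out to ask how faithfully DNA methylation is inherited as single cells expand into populations, and how this relates to gene expression.

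Each library has 1 value per gene, a regularised log (rlog) level on the log2 scale, in which differences of weakly expressed genes are shrunken. Read depth is unknown, so no limit from counting can be given, and rlog levels, which are not corrected for gene length, were compared between lines and not between genes. The clonal lines of a set all come from 1 embryo's culture. A p-value between the sets therefore measures the spread between clones. The embryo, its sex, and the karyotype and passage through crisis of its culture cannot be told apart. Of 9 fibroblast markers all were measured, with Col1a1 between 20.31 and 21.41 in the clonal lines, although Thy1 lay at only 2.72 to 3.43 in MEF-1 clones and at 3.42 to 8.02 in MEF-2 clones. Sox10 (neural crest), Wt1 (mesothelium), Tie1 (endothelium) and Cd3e (T cells) were below 0 in every clonal line, and Hbb-bs (blood) and Myf5 (muscle) were listed at 0. Of 7 marker lists, that of neural and glial genes was the one whose summed level did not overlap between the sets. Its 4 fitted genes of 5 all differed, 1 upwards in MEF-2 and 3 downwards, and the summed level (log2) was 9.71 to 10.9 in MEF-1 clones and 11.7 to 13.0 in MEF-2 clones, led by the tubulin gene Tubb3. Its part in the differences given here was not tested.

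Promoter sequence gives one view of the pathway that does not rest on the expression values. Retinoic acid receptors bind direct repeats of a short half-site, and the repeat with a spacing of 5 bases (DR5) is the classical response element of Rarb and of the degrading enzyme gene Cyp26a1. RefSeq promoter windows (GRCm38.p6) running from 250 bases before to 50 bases after the transcription start were searched on both strands for a half-site (AGGTCA, its variant AGTTCA, the further variant GGGTCA or the last variant GGTTCA), 5 bases of any kind, and again any of these half-sites. Single half-sites are common and were present in 43.7% of the 32851 windows. A DR5 was found in 32 windows, or 0.0974% of them. The windows covered 7 of the 9 genes, without Crabp2 and Aldh1a3, and 1 of those 7, Rarb, held a DR5. The stretch around the element is shown for Rarb (minus strand, chr14:16575506-16575535, inside GENCODE exons of longer Rarb transcripts and before the RefSeq start) and for Cyp26a1 (plus strand, chr19:37697770-37697799, across the GENCODE start of the gene), with the 17 bases of the DR5 in capitals. In Rarb the element reads along the gene and lies at positions -53 to -37 relative to the start. In Cyp26a1 it reads on the opposite strand, at positions -32 to -16.
Rarb: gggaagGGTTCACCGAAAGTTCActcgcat
Cyp26a1: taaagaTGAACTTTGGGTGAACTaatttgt

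The 100 bases before the start are also shown for Crabp1 (plus strand, chr9:54764648-54764747), the gene with the largest difference between the sets, and for Aldh1a2 (plus strand, chr9:71215689-71215788), the gene found at the lowest levels, here with each CpG, the dinucleotide at which DNA is methylated, in capitals. Neither stretch overlaps an annotated exon of its gene. The windows of Crabp1 and Aldh1a2 held 12 and 40 CpGs in the 250 bases before the start, against a median of 6 over all windows. Those of Rarb, Rarg, Cyp26b1 and Dhrs3 held between 7 and 19. The windows of the 2 Aldh1a1 starts held 3 and 1, and 37.8% of all windows held 3 or fewer. Methylation at these bases was not analysed here.
Crabp1: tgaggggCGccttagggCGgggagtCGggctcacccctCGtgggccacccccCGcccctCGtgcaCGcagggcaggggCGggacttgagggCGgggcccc
Aldh1a2: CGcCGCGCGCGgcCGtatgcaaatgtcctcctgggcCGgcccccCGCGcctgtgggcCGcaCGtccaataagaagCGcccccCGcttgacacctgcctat

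The 2 sets of clonal lines differed at most of these genes, and in both directions. Crabp1, Crabp2, Cyp26b1 and Aldh1a3 were higher in the 7 MEF-2 clones, whereas Aldh1a1, Dhrs3 and Rarg were higher in the 7 MEF-1 clones. Rarb did not pass the test and Aldh1a2 was too low to be fitted. The comparison was fitted with limma over 15278 protein-coding genes with an average above 0, with p-values adjusted over all of them by the Benjamini-Hochberg method and genes called at an adjusted p under 0.05. Of the 8 genes fitted, 4 were called higher in MEF-2, where 27.5% of all genes fitted were, and 3 were called higher in MEF-1, where 28.6% were. Altogether 7 of 8 were called, read against 56.1% of all genes fitted. For 3 of them, Crabp1, Crabp2 and Aldh1a1, the clones of the 2 sets also did not overlap, which held for 25.9% of all genes fitted. As the members were chosen with earlier results of these data known, these shares are descriptions and cannot be read as a trait of the pathway.

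**Figure D1:**
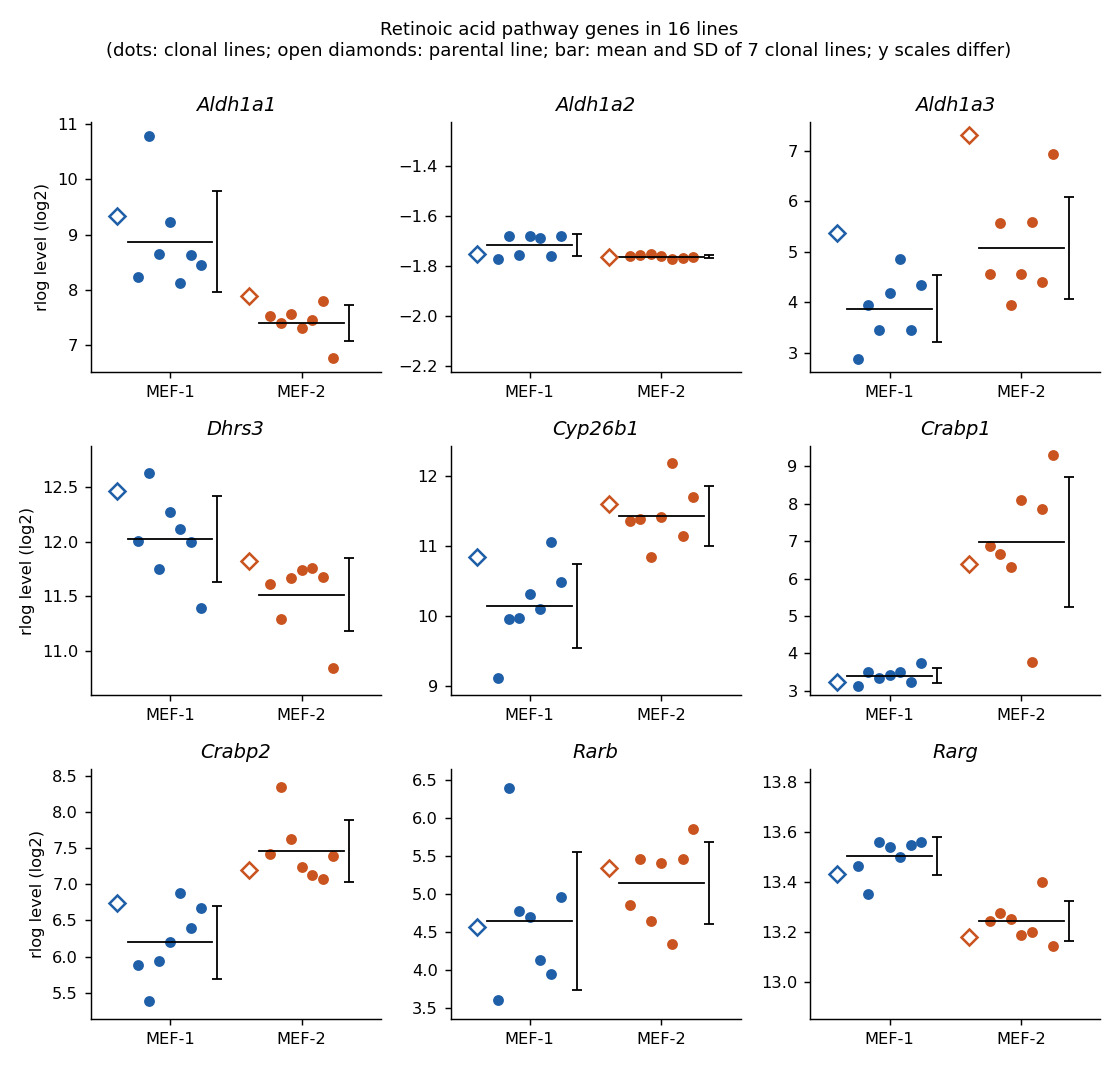
Rlog level (log2, y axis, scales differ between panels) of each of the 9 genes in MEF-1 (blue) and MEF-2 (orange), with filled dots for the 7 clonal lines in the order of their numbers, open diamonds for the parental line, and bars for the mean and SD of the clones. Crabp1 lies between 3.13 and 3.75 in MEF-1 clones and between 3.78 and 9.30 in MEF-2 clones, and both parental lines lie above all their clones for Aldh1a3.

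Aldh1a1 (chr19:20492715-20643465, plus strand in mm10), one of the enzymes that oxidise retinaldehyde to retinoic acid, was the member with the largest difference in favour of MEF-1. Its rlog levels in MEF-1 clones 1 to 7 were 8.23, 10.79, 8.64, 9.22, 8.13, 8.63 and 8.45. In MEF-2 clones 1 to 7 they were 7.51, 7.39, 7.57, 7.31, 7.45, 7.80 and 6.76. Every MEF-1 clone lay above every MEF-2 clone, and clone 2 of MEF-1 stood well above its sister lines. The difference of MEF-2 minus MEF-1 clones was -1.47 (SE 0.34, n = 7 against 7, limma adjusted p = 0.00188). Chromosome 19, on which the gene lies, was itself lower in MEF-2 clones, with a median difference of -0.38 over its fitted genes. With the chromosome median of each line subtracted, Aldh1a1 still differed by -1.09. The parental lines stood in the same order, at 9.33 for MEF-1 and 7.88 for MEF-2.

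Aldh1a3 (chr7:66390890-66427517, minus strand) encodes another enzyme of the same step and moved the opposite way. The MEF-1 clones had rlog levels of 2.87, 3.96, 3.45, 4.19, 4.86, 3.46 and 4.35 in the order of their numbers. The MEF-2 clones had levels of 4.55, 5.56, 3.95, 4.57, 5.58, 4.40 and 6.93. The sets overlapped, with 3 MEF-2 clones above the highest MEF-1 clone, and clone 7 of MEF-2 was the highest of all clones. The difference was 1.20 (SE 0.42, limma adjusted p = 0.0244). It rested in part on MEF-1 clone 1, since without that line it was 1.03 with a limma adjusted p of 0.0529.

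The parental lines of both sets had more Aldh1a3 than any of their clones, at 5.38 (MEF-1) and 7.32 (MEF-2). The mean of the clones minus the parental line was -1.50 for MEF-1 and -2.24 for MEF-2. With 1 parental library in each set this is a description, without a test.

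Aldh1a2 (chr9:71215789-71296243, plus strand), the enzyme that makes most of the retinoic acid of the early embryo, was at or near the bottom of the table in all 16 lines, between -1.77 and -1.68. In all 8 MEF-2 lines it equalled the value at which genes of like average were commonly listed in that line, within a tolerance of 0.03. The MEF-1 parental line and MEF-1 clones 1, 3 and 6 were also at that common value. MEF-1 clones 2, 4, 5 and 7 stood above it by 0.079 each. Aldh1a2 was therefore not detectable in 12 of the 16 lines, so that of the 3 Aldh1a members Aldh1a1 and Aldh1a3 had levels above the bottom of the table. Aldh1a7, a close relative of Aldh1a1, was also measured, with means of 9.13 in MEF-1 clones and 7.88 in MEF-2 clones.

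Dhrs3 (chr4:144892827-144928209, plus strand) encodes a reductase that turns retinaldehyde back to retinol, upstream of the Aldh1a step, and its transcription is known to be raised by retinoic acid. Its rlog levels were 12.00, 12.63, 11.75, 12.28, 12.12, 12.00 and 11.39 in MEF-1 clones 1 to 7. They were 11.61, 11.29, 11.66, 11.74, 11.76, 11.68 and 10.84 in MEF-2 clones 1 to 7. The sets overlapped, 5 MEF-1 clones lay above the highest MEF-2 clone, and clone 7 was the lowest line in each set. The difference was -0.51 (SE 0.18, limma adjusted p = 0.0234), which is small beside that of Aldh1a1. Both parental lines were near the top of their sets, at 12.47 and 11.82.

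Cyp26b1 (chr6:84571414-84593908, minus strand) encodes an enzyme that breaks retinoic acid down and is itself induced by it. In MEF-1 clones its rlog levels were 9.12, 9.96, 9.97, 10.32, 10.10, 11.06 and 10.49. In MEF-2 clones they were 11.35, 11.38, 10.84, 11.42, 12.18, 11.14 and 11.70. MEF-2 was higher by 1.28 (SE 0.25, limma adjusted p = 0.000544), with 6 of its 7 clones above the highest MEF-1 clone, and MEF-1 clone 1 was the lowest of all. The parental lines, at 10.84 and 11.60, showed the same order.

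Crabp1 (chr9:54764748-54773110, plus strand), a cytoplasmic protein that holds retinoic acid and is linked to its turnover, had the largest difference of the 9 genes. In MEF-1 it was uniformly low, with rlog levels of 3.13, 3.50, 3.34, 3.42, 3.49, 3.24 and 3.75 in the clones and 3.23 in the parental line. In MEF-2 clones it was 6.87, 6.66, 6.30, 8.09, 3.78, 7.85 and 9.30, and in the parental line 6.39. Clone 5 of MEF-2 thus had a level of the MEF-1 kind, only just above the highest MEF-1 clone, while the other 6 MEF-2 clones lay far above. The difference was 3.57 (95% interval 2.28 to 4.85, SE 0.60, limma adjusted p = 0.00016), or 11.9-fold on the rlog scale. Over all alternatives of the fit it stayed between 3.18 and 4.10.

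Crabp2 (chr3:87948666-87953376, plus strand), the related protein that delivers retinoic acid to nuclear receptors, was also higher in MEF-2. Among MEF-2 clones it was far more even than Crabp1 (SD 0.434 against 1.74), but among MEF-1 clones it was less even (0.507 against 0.202). Its rlog levels were 5.88, 5.39, 5.94, 6.21, 6.88, 6.39 and 6.67 in MEF-1 clones. They were 7.42, 8.34, 7.63, 7.24, 7.13, 7.07 and 7.39 in MEF-2 clones. All 7 MEF-2 clones lay above all 7 MEF-1 clones, and the difference was 1.26 (SE 0.24, limma adjusted p = 0.000435). The parental lines stood closer together, at 6.74 and 7.19.

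Rarb (chr14:16430839-16819156, minus strand), the receptor gene with the DR5 shown above and a widely used readout of retinoic acid signalling, did not pass the test. Its rlog levels were 3.60, 6.40, 4.78, 4.70, 4.13, 3.95 and 4.96 in MEF-1 clones. They were 4.85, 5.46, 4.64, 5.41, 4.34, 5.47 and 5.86 in MEF-2 clones. MEF-1 clone 2 held the highest value of all lines and MEF-1 clone 1 the lowest, so that the MEF-1 clones enclosed all of MEF-2. The difference was 0.50 (95% interval -0.29 to 1.30, SE 0.37, limma adjusted p = 0.263). Clone 2 of MEF-1 decided this call, as without it MEF-2 was higher by 0.80 with a limma adjusted p of 0.028.

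Rarg (chr15:102234938-102257517, minus strand), a receptor expressed in mesenchyme and skin, varied least of the 8 fitted members. It lay between 13.35 and 13.56 in MEF-1 clones, with a median of 13.54, and between 13.14 and 13.40 in MEF-2 clones, with a median of 13.25. The sets overlapped by 1 line on each side, since MEF-1 clone 2 at 13.35 lay below MEF-2 clone 6 at 13.40. The difference of -0.26 (SE 0.046) was small but passed the test (limma adjusted p = 0.000252), and the parental lines, at 13.43 and 13.18, stood in the same order.

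**Figure D2:**
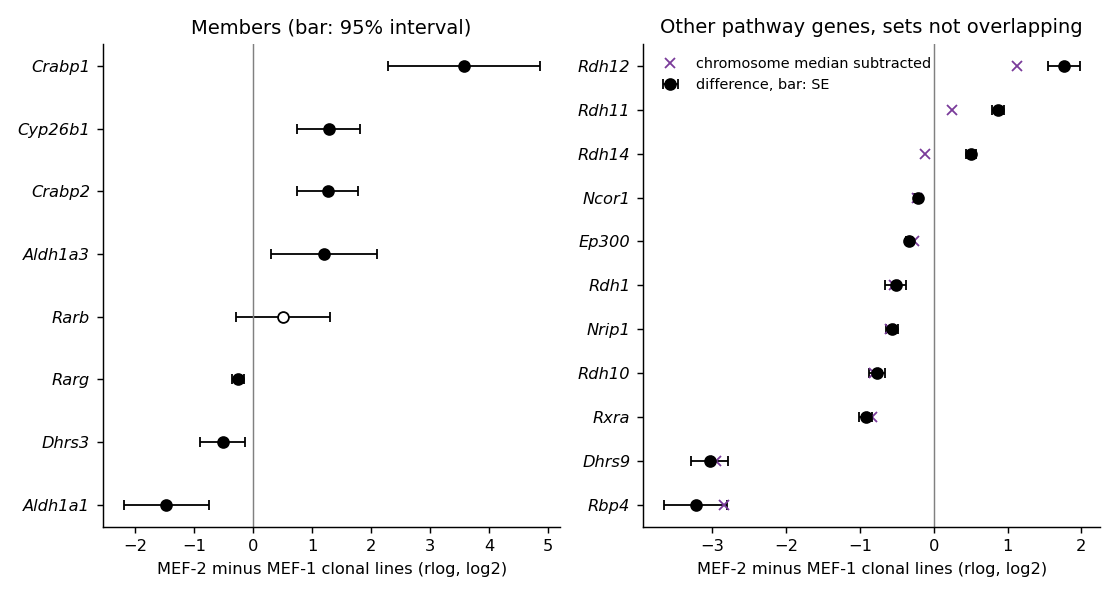
Difference of MEF-2 minus MEF-1 clonal lines in rlog level (log2, x axis) for the 8 fitted members with 95% intervals (left, filled where called, open where not) and for 11 other pathway genes that were called and did not overlap between the sets, with their SE (right). Crosses give the difference after the median of the gene's chromosome was subtracted, which moves Rdh14 from 0.51 to -0.12 and leaves Dhrs9 and Rbp4 near -3.

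Sister clones of a set differed widely at some of these genes and little at others. A range of 2 or more between the highest and the lowest clone was found for Rarb (2.79) and Aldh1a1 (2.66) in MEF-1, and for Crabp1 (5.51) and Aldh1a3 (2.97) in MEF-2. Over all genes fitted, such a range was found for 5.69% in MEF-1 and 4.7% in MEF-2. These shares, too, stand beside members chosen with earlier results of these data known. Both MEF-1 ranges rested on clone 2, without which no member had a range of 2 or more there, and without clone 7 of MEF-2 only Crabp1 had one. The SD of Crabp1 was 1.74 among MEF-2 clones, beside a median SD of 0.411 over 525 genes with an average within 0.5 of its own, and 0.202 among MEF-1 clones, beside a median of 0.480. Cyp26b1 had SDs of 0.593 and 0.425 in MEF-1 and MEF-2, beside medians of 0.157 and 0.131 over 2169 genes of like average. Dhrs3 had SDs of 0.392 and 0.335, beside medians of 0.146 and 0.115. Rarg was the opposite case, with SDs of 0.0756 and 0.0819 that lay below the medians of 0.137 and 0.109 for genes of like average.

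**Figure D3:**
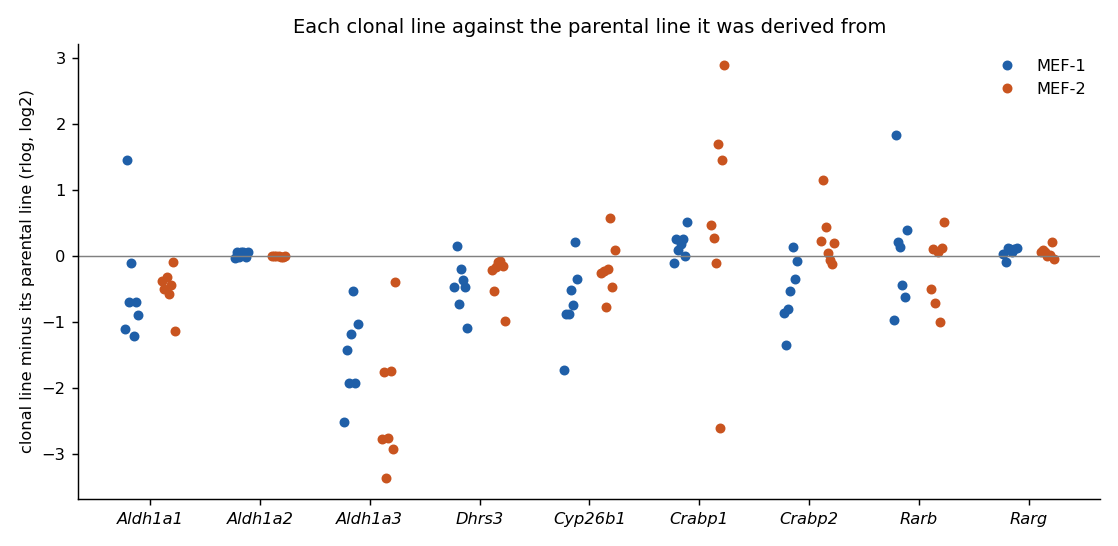
Rlog level of each clonal line minus that of the parental line it was derived from (log2, y axis) for the 9 genes, with 7 dots for MEF-1 (blue) and 7 for MEF-2 (orange). All 14 dots of Aldh1a3 lie below 0, with means of -1.50 and -2.24, whereas those of Crabp1 in MEF-2 lie on both sides.

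A clonal line starts from 1 cell, so its level can be set beside that of the population the cell came from. In MEF-1 the parental line lay outside the range of its 7 clones for 1 of the 8 fitted genes, Aldh1a3, where 40.9% of all genes fitted did so. In MEF-2 it lay outside for Aldh1a1, Aldh1a3 and Dhrs3, or 3 of 8, where 34.2% did so, and in each case it was above all clones. The MEF-1 count depended on single lines. Without clone 2 it was 4, because Aldh1a1, Dhrs3 and Rarg then also lay outside, and without clone 1, 5 or 6 it was 2. Crabp1 spread to both sides of its parental line in MEF-2, with 5 clones above and 2 below.

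Whether lines with more of a synthesis enzyme also had more of the genes that retinoic acid is known to induce was tested within each set of 7 clones. Each of Aldh1a1, Aldh1a2 and Aldh1a3 was set against Rarb, Cyp26b1, Crabp2 and Dhrs3, which made 24 relations. Those of Aldh1a2 were kept in the 24 and in their adjustment but cannot answer the question. Its values were at the common bottom value or, in MEF-1 clones 2, 4, 5 and 7, 0.079 above it. None of the 24 had an adjusted p under 0.05 in exact permutation tests (two-sided, Benjamini-Hochberg over the 24). An unadjusted p under 0.05 was found for 2 by Pearson's r and for 2 by Spearman's rho. Aldh1a1 and Rarb in MEF-1 had r = 0.88 (exact permutation p = 0.0228, adjusted 0.333) and rho = 0.61 (exact p = 0.167, adjusted 0.5). That relation rested on clone 2, the highest line for both genes, as r was 0.43 without clones 2 and 4. In MEF-2 the same pair had r = -0.49 and rho = -0.32 (exact permutation p = 0.271 and 0.498, adjusted 0.592 and 0.796).

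Aldh1a3 and Cyp26b1 in MEF-2 had rho = 0.93 (exact permutation p = 0.00675, adjusted 0.148) and r = 0.68 (exact p = 0.102, adjusted 0.352), with r = 0.71 without clones 5 and 7. In MEF-1 their r was 0.38 and rho 0.46 (exact permutation p = 0.412 and 0.302, adjusted 0.706 and 0.726). Aldh1a3 and Dhrs3 in MEF-2 had r = -0.83 (exact permutation p = 0.0421, adjusted 0.333) and rho = -0.21 (exact p = 0.662, adjusted 0.836), with r = -0.86 without clones 5 and 7. The remaining unadjusted p under 0.05 was the rho of 0.89 between Aldh1a2 and Crabp2 in MEF-2 (exact permutation p = 0.0123, adjusted 0.148), for which r was 0.64 (exact p = 0.121, adjusted 0.352) and 0.36 without clones 5 and 6. As Aldh1a2 was at the common bottom value in every MEF-2 line, its variation there was that of the whole line and not of the gene.

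**Figure D4:**
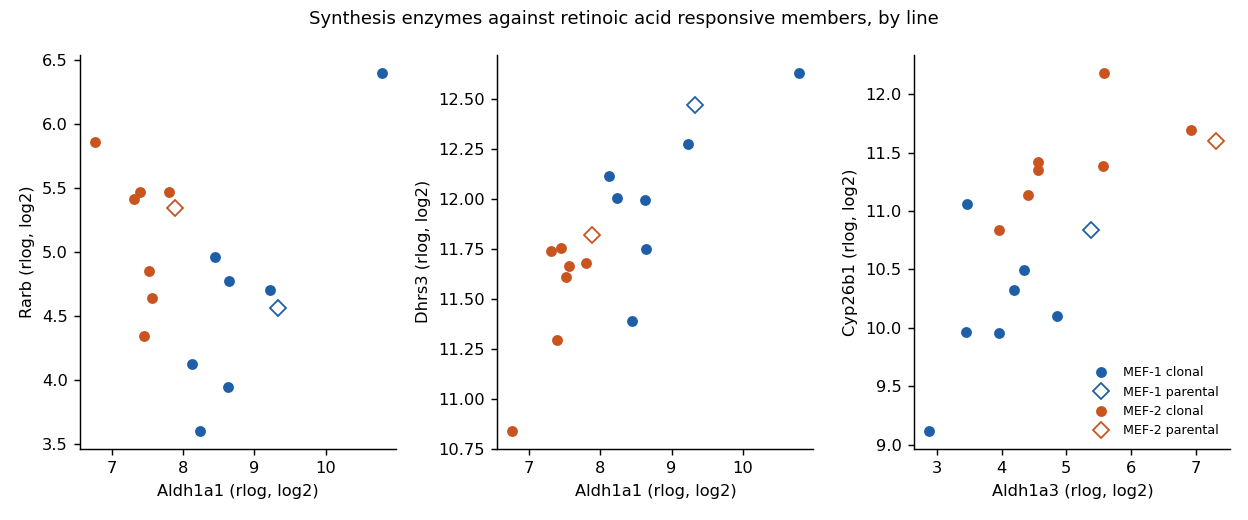
Rlog levels (log2 on both axes) of Rarb against Aldh1a1, Dhrs3 against Aldh1a1 and Cyp26b1 against Aldh1a3 in the 16 lines, with filled dots for clonal lines and open diamonds for parental lines. MEF-1 clone 2 lies alone at an Aldh1a1 level of 10.79, with Rarb at 6.40 and Dhrs3 at 12.63.

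After the mean of each set was subtracted, Aldh1a1 and Dhrs3 moved most closely together of the 28 pairs of fitted members over the 14 clonal lines (r = 0.69). That pair rested on a few lines, as within the sets its r went from 0.71 to -0.41 without clones 2 and 4 of MEF-1 and from 0.82 to 0.09 without clones 6 and 7 of MEF-2. With all 7 clones its exact permutation p was 0.0929 and 0.0556 (adjusted 0.352 and 0.333), with rho = 0.39 and 0.32 (exact p = 0.396 and 0.498, adjusted 0.796 for both). It was followed by Aldh1a1 and Rarb (r = 0.63). The lowest correlation was that of Crabp2 and Aldh1a1 (r = -0.55). The binding proteins Crabp1 and Crabp2 had r = 0.02. These are descriptions over lines that share a culture of origin within each set.

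The genes whose pattern was most like that of each member were taken in the same way. They are those with the 3 highest r over the 14 clonal lines among 13086 protein-coding genes. The highest of so many r over 14 lines can be large by chance alone. No test was made and dependence on single lines was not examined, so these genes are a description and not evidence of shared regulation. Crabp1 varied most like Cap2 (r = 0.92), Gramd4 (0.91) and Strbp (0.85). For Aldh1a1 they were Zfp40 (0.96), D130040H23Rik (0.92) and Kctd18 (0.91), and for Aldh1a3 they were Tarbp2 (0.92), Usp5 (0.90) and Smyd5 (0.89). Rarb came closest to Chrm4 (0.86), Adgrf5 (0.86) and Nrp1 (0.82), and Cyp26b1 to Bcl11b (0.86), Mllt1 (0.85) and Mri1 (0.85). Those of Crabp2 were Samd5 (0.88), Aldh16a1 (0.85) and Epn3 (0.84), those of Dhrs3 were Trp53inp1 (0.90), Cdan1 (0.86) and Apoe (0.86), and those of Rarg were F5 (0.90), Ngly1 (0.84) and 1190005I06Rik (0.83). No other member was among the 3 genes most like any member.

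The rest of the pathway was described from 6 lists, also chosen with earlier results of these data known, that together hold 60 genes. Of these, 44 had an average above 0 and were fitted, 12 were called higher in MEF-2 and 17 higher in MEF-1, and 15 were not called. The called share of 65.9% stands beside 56.1% for all genes fitted, and the median difference was -0.14, beside -0.0044 for all genes fitted. The clones of the sets did not overlap for 12 of the 44, a share close to the 25.9% of all genes fitted.

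Among genes for the uptake, transport and storage of vitamin A, 4 of 6 fitted genes were higher in MEF-1. Over all genes fitted, 28.6% were. Rbp4, which encodes the carrier of retinol in blood, lay at 5.43 to 8.73 in MEF-1 clones and 3.24 to 4.05 in MEF-2 clones, a difference of -3.23 (SE 0.43), or -2.84 with the median of chromosome 19 subtracted.

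Of 13 fitted oxidoreductases acting on retinol or retinaldehyde, 6 were higher in MEF-2 and 5 higher in MEF-1. That is 84.6% called, beside 56.1% of all genes fitted. Dhrs9, a retinol dehydrogenase, lay at 11.08 to 12.57 in MEF-1 clones and at 8.34 to 9.59 in MEF-2 clones, a difference of -3.03 (SE 0.25). Rdh10, the main retinol dehydrogenase of the embryo, was lower in MEF-2 by -0.77 (SE 0.11), and Rdh1 by -0.51 (SE 0.14). Rdh12, Rdh11 and Rdh14 were higher in MEF-2 by 1.76, 0.87 and 0.51. All 3 lie on chromosome 12, whose median, taken as for chromosome 19, differed by 0.63. With the chromosome median subtracted the values were 1.13, 0.24 and -0.12. Rdh14 thus changed sign and was no longer called (limma adjusted p = 0.151).

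Among the other binding proteins and receptors, 1 of 4 fitted genes was higher in MEF-2 and 1 was higher in MEF-1. That is 50% called, beside 56.1% of all genes fitted. The gene higher in MEF-1 was Rxra, the partner receptor of the RARs, with a difference of -0.92 (SE 0.09). It lay at 13.41 to 13.62 in MEF-1 clones and 12.32 to 13.07 in MEF-2 clones. None of 10 receptor coregulators was higher in MEF-2 and 5 were higher in MEF-1, by small amounts, which is 50% called beside 56.1% of all genes fitted. Of these, Nrip1 (-0.56, SE 0.08), Ep300 (-0.33, SE 0.04) and Ncor1 (-0.22, SE 0.05) did not overlap between the sets. With Rarg, both receptor genes called were higher in MEF-1.

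Of 8 fitted genes listed as responding to retinoic acid, beyond the members themselves, 3 were higher in MEF-2, 1 was higher in MEF-1 and 4 were not called. This is 50% called, beside 56.1% of all genes fitted. No gene of this list separated the sets completely, where 25.9% of all genes fitted were called and did so. Among 3 fitted genes of synthesis and breakdown, 1 was higher in each set, or 66.7% called beside the same 56.1%. Cyp26a1, the second gene with a DR5 shown above, was listed between -1.61 and -1.37 in MEF-1 clones and between -1.61 and -1.58 in MEF-2 clones, and its average was too low for it to be fitted. Among all 31 genes with a DR5 in a promoter window, 13 were protein-coding genes of the table and 9 were fitted, Rarb included. Of these 0 were called higher in MEF-2, 3 were called higher in MEF-1 and 6 were not called, with a median difference of 0.02, where 27.5%, 28.6% and, in either direction, 56.1% of all genes fitted were called.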

How the data were processed

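Total RNA was depleted of ribosomal RNA and sequenced as directional paired-end libraries from 2 parental and 14 clonal mouse embryonic fibroblast lines. Per the study's methods, the authors trimmed reads with Trim Galore 0.6.0, quantified transcripts with Salmon 1.5.2 (mm10, Ensembl release 102) and applied the rlog transformation of DESeq2 1.24.0. The values were deposited by the authors on the log2 scale, 1 per gene and line, scaled by size factors and shrunken towards each gene's average. Read depth, how transcripts were summed to genes and the blind setting of rlog are not given in the sources used here, so no counting interval or floor could be set. Because of the shrinkage, differences of weakly expressed genes are understated.

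Lines were grouped by their labels. Symbols, positions and biotypes came from GENCODE M21 (mm10), which held 54130 of the 54453 gene identifiers. Clonal lines of MEF-2 (7) were compared with those of MEF-1 (7) with limma 3.58.1 (R 4.3.3, trended prior) on 15278 protein-coding genes with an average above 0, with Benjamini-Hochberg adjustment over all of them and a threshold of 0.05. Parental lines, with 1 library each, were described only. In simulated data, 168 of 200 genes shifted by 1 were called, with 13 calls among the unshifted genes. Those values were drawn independently for each gene and line, and only 200 of the 15278 genes were shifted. In the real data 56.1% were called and the clones of a set share a culture, so the simulation does not check those calls. Relations over 7 lines used exact permutation tests. Alternatives were no filter or a stricter filter, every biotype, other variance priors, centring, subtraction of chromosome medians, adding the parental lines, the clone number as a block, leaving out each clone, and exact permutation tests. Of the other pathway genes, those called with no overlap between the sets were named, except 1 that is not reported here, and for each fitted member the 3 genes most alike. The members and gene lists were chosen with earlier results of these data known.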

Additional observations from a re-analysis of the deposited data

Results flagged for a closer look

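Among the MEF-1 clonal lines, clone 2 stood apart for Aldh1a1, at an rlog level of 10.79 against 9.22 in the next highest line, a gap of 0.587 of the whole range of the 7 lines, above the critical value of Dixon's test. Without it the other 6 MEF-1 clones still lay above all MEF-2 clones. Across the 9 genes, 18 sets of 7 lines were examined, and about 1 in 20 is marked by chance, or 0.9 of 18.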

How the results depend on the processing

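Of 192 recomputed differences of the 8 fitted members, 190 kept their direction and their side of the threshold. The exceptions came from leaving out 1 line. The difference of Aldh1a3 ranged from 0.89 to 1.39 over such fits and lost its call without MEF-1 clone 1 (1.03), and that of Rarb ranged from 0.33 to 0.80 and gained one without MEF-1 clone 2 (0.80). Because of these lines, 6 to 8 members were called in place of 7. Leaving out 1 line moved the members with the parental line outside its clones from 1 to 4 in MEF-1, and those with a range of 2 or more from 0 to 2 in MEF-1 and from 1 to 2 in MEF-2. With a range of 1 or more as the limit, each set had 6 members. The genes called numbered 7745 to 10284 and the other pathway genes called 27 to 30. With the clone number as a replicate block, 8222 genes and 7 members were called, the differences of the members were unchanged and no call of a member changed. The clone numbers did not pair the lines, as same-numbered clones correlated at -0.13 to 0.20 and 1 of 7 was its partner's best match.

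Depth is unknown, a low level cannot be told from absence, and each parental line has 1 library. The embryos differ in sex and the lines grown from them in karyotype, which cannot be told apart from the sets.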
